A study of Mus musculus with 15 samples.

Results

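The mitochondrial ribosomal protein genes were followed in brainstem RNA of C57BL/6 mice, as the Ensembl genes whose mouse symbol starts with Mrpl or Mrps and goes on with a number and at most a letter a, b or c. Of the 57180 gene identifiers in the tables, 51884 had a symbol, and 78 of these made up the set. The AMPK experiment held 3 libraries of brainstem ventilatory center tissue labelled AMPK+/+ and 3 labelled AMPK-/-. They are described as from newly born mice that lack the AMPK subunit encoded by Prkaa2 and their wild-type (WT) littermates. The LMX1B experiment held 3 libraries each labelled LMX1B+/+, LMX1B+/- and LMX1B-/-. They are described as from prenatal brainstems with both, 1 or no copy of the gene for the transcription factor Lmx1b, whose complete loss is lethal. No treatment was given by the labels. The methods name postnatal days 1 to 5 for perfused mice and no day for the sequenced tissue, and the number of animals per library and the way the alleles were made were not given in the sources used here. It is thus unknown whether libraries came from separate animals, and p-values measure only the spread between libraries, which may be technical.

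The mitochondrial ribosome translates the mRNAs encoded by mitochondrial DNA, all of which encode subunits of the respiratory chain or the ATP synthase. Its proteins are encoded in the nucleus, made in the cytosol and imported, and they join the ribosomal RNAs made inside the organelle. Many are relatives of bacterial ribosomal proteins, and the rest are found only in mitochondria. Of the 78 genes, 16 encode small subunit proteins of the bacterial type, 10 small subunit proteins specific to mitochondria, 30 large subunit proteins of the bacterial type and 21 large subunit proteins specific to mitochondria. The last group includes Mrps30 and Mrps18a, which carry small subunit names for historical reasons. Mrps36 shares only the name and encodes a subunit of the 2-oxoglutarate dehydrogenase complex.

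The promoters of 4 of the genes are shown as the 250 bases before the transcription start given by RefSeq on mouse build GRCm38.p6. They are read 5′ to 3′ on the strand of the gene. NRF1, GABP and YY1 are transcription factors known to act on nuclear genes of mitochondria, and capitals mark a match on either strand to GCGCANGCG for NRF1, CCGGAAGT for GABP or AAGATGGCG for YY1. Mrpl30 and Mrps22 rose in both experiments, the Mrpl30 promoter holds the NRF1 letters at 2 places, the Mrps11 promoter holds the YY1 letters, and Mrpl20 rose in both experiments with none of the 3 motifs in this window.
Mrpl30, chr1:37890227-37890476, strand +: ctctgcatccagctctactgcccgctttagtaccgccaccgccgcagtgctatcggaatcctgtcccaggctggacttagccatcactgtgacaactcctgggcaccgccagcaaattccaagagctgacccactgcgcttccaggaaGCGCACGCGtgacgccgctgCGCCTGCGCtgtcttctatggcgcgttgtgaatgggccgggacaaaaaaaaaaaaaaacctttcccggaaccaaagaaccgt
Mrps22, chr9:98601680-98601929, strand -: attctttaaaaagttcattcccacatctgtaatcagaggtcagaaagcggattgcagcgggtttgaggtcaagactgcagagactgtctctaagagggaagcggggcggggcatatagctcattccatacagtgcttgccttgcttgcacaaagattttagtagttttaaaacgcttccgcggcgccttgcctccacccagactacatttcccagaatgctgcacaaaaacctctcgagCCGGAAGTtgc
Mrps11, chr7:78782881-78783130, strand +: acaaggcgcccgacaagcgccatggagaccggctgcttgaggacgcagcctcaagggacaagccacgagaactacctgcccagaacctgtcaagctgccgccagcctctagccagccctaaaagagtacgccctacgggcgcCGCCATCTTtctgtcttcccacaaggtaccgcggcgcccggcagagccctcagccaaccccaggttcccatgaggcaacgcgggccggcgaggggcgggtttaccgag
Mrpl20, chr4:155802628-155802877, strand +: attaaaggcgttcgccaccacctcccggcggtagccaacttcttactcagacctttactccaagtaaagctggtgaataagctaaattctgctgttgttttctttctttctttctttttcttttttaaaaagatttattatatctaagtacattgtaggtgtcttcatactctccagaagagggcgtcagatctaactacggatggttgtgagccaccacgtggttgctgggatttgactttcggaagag

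RefSeq promoters were found for 69 of the 78 genes, and each gene was counted once over all its listed starts. The NRF1 letters were present for 13 of the 69 genes (18.8%) and for 5.86% of all 27025 genes with a promoter. The GABP letters were present for 10 of the 69 (14.5%) and for 3.23% of all genes, and the YY1 letters for 2 of the 69 (2.90%) and for 0.711% of all. At least 1 of the 3 motifs was present for 25 of the 69 genes (36.2%), against 9.19% of all genes. The 27025 genes include genes not tested in these libraries and were not matched for expression or base composition. A match is a string of letters and not a measured binding site.

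The libraries of the LMX1B experiment held 28833130 to 37441679 counts, and 4 of the AMPK experiment 14975095 to 17384171. AMPK+/+ 2 held 291212 counts and AMPK-/- 3 held 335986, with a median of 5 and 9 counts per mitochondrial ribosomal protein gene. In AMPK+/+ 2, 28 of the 78 genes had 3 counts or fewer and 4 had none (Mrps18c, Mrpl57, Mrpl23 and Mrps34), which allows a level of up to 9.98 CPM (counts per 1000000, scaled by TMM, the trimmed mean of M-values). In AMPK-/- 3 there were 7 genes with 3 counts or fewer, at a limit of 9.07 CPM, and the limits of the other 13 libraries lay between 0.0676 and 0.198 CPM. Levels of Prkaa2, the gene named as deleted, were 21.9, 26.6 and 29.7 CPM in AMPK+/+ and 25.4, 22.3 and 12.1 CPM in the libraries labelled AMPK-/- (log2 fold change −0.20, SE 0.234, edgeR adjusted p = 0.659). Lmx1b was at 22.5, 16.0 and 9.73 CPM in LMX1B+/+, at 30.5, 11.9 and 14.3 CPM in the libraries labelled LMX1B+/- and at 1.45, 1.13 and 0.848 CPM in LMX1B-/-. It was thus lower in LMX1B-/- (log2 fold change −3.82, SE 0.411, edgeR adjusted p = 0.00287) and not detectably lower in LMX1B+/- (0.23, SE 0.334, edgeR adjusted p = 0.618). The names AMPK-/- and LMX1B+/- stand for labels throughout. Of 9 hindbrain markers, all 9 were above the limit in each LMX1B library, 3 in every AMPK+/+ and 4 in every AMPK-/- library. The AMPK counts include AMPK+/+ 2 and AMPK-/- 3, whose limits are high. The 9 markers summed to 108 to 200 CPM in AMPK+/+ and 53.1 to 166 CPM in AMPK-/-. In LMX1B+/+, LMX1B+/- and LMX1B-/- they summed to 138 to 291, 239 to 624 and 208 to 277 CPM. The 5 forebrain markers summed to at most 1.11 CPM in the AMPK libraries and to 2.64 to 21.4 CPM in the LMX1B libraries.

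In WT brainstem the genes of the mitochondrial ribosome were expressed at levels spread over a 20.8-fold range of median RPKM in AMPK+/+ and a 21.5-fold range in LMX1B+/+. RPKM, reads per kilobase of gene scaled to the library total, is the unit in which levels of different genes were compared. The median over the 78 genes was 7.16 RPKM in AMPK+/+ and 6.45 RPKM in LMX1B+/+. The order was similar in the 2 experiments (Spearman's rho 0.910 across 78 genes, which share their gene lengths and are not independent replicates).

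Mrpl12, the stalk protein that recruits translation factors, stood at the top in AMPK+/+ with a median of 25.3 RPKM (range 22.4 to 29.6) and next to the top in LMX1B+/+ with 25.5 RPKM (25.2 to 29.9). Mrpl41, a protein of the large subunit specific to mitochondria, had 25.3 RPKM (19.3 to 33.8) and 23.2 RPKM (22.05 to 27.1). Mrpl28 (24.97 RPKM) and Mrpl20 (24.8 RPKM) followed in AMPK+/+, and the ranges of these 4 genes overlapped. In LMX1B+/+ the highest gene was Mrpl34, which encodes a small protein of the large subunit, with 28.7 RPKM (25.4 to 31.7), overlapping the range of Mrpl12. Mrpl50 came next there with 21.0 RPKM.

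The same 4 genes had the lowest RPKM in both experiments. RPKM divides by the deposited gene length, so the order depends on these lengths. They were 8631 bases for Mrps35, 7936 for Mrpl13, 6666 for Mrps30 and 2064 for Mrps34. Among the genes high in RPKM, Mrpl34 had 607 bases and Mrpl41 had 888. Mrps34, a protein of the small subunit specific to mitochondria, had 1.22 RPKM in AMPK+/+ (0 to 1.91) and 1.34 RPKM in LMX1B+/+ (0.924 to 1.63). Mrps35 had 1.24 and 1.58 RPKM, Mrpl13 1.84 and 1.43 RPKM, and Mrps30 1.90 and 2.03 RPKM. The range of Mrpl13 lay above that of Mrps35 in AMPK+/+ (1.73 to 2.80 against 1.19 to 1.48 RPKM) and that of Mrps30 above that of Mrps35 in LMX1B+/+ (2.00 to 2.78 against 1.498 to 1.91 RPKM), while the other neighbours among these 4 genes overlapped. The exons of Mrps34 overlap those of Nme3 on the same strand and of Mapk8ip3 on the opposite strand, so its reads may have been shared or left out in counting. In all, the exons of 33 of the 78 genes overlap another gene, 8 of them on the same strand and 28 on the opposite strand. These overlaps are those of a GENCODE annotation of build GRCm38. The annotation and strand setting of the counting were not given in the sources used here, so the overlaps in the counted gene models may differ. Pseudogene copies named after Mrpl23, Mrpl48 and Mrps36 had up to 626 counts in a library, and the values of these 3 genes are uncertain for that reason.

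**Figure D1:**
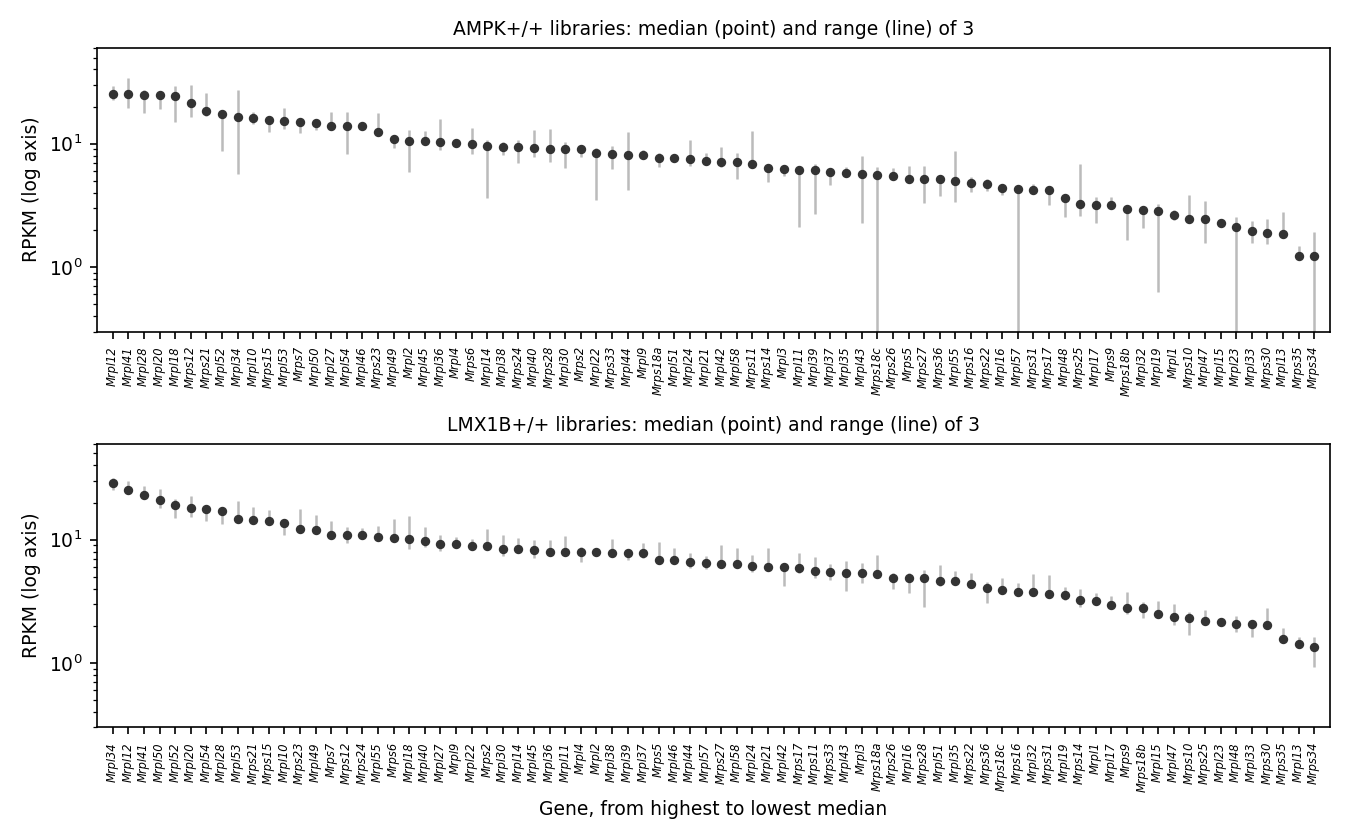
Levels of the 78 genes in WT libraries, in RPKM on a log axis, for AMPK+/+ (top) and LMX1B+/+ (bottom), ordered from the highest to the lowest median; points are medians and lines the range of 3 libraries. Lines that run to the bottom of the axis (Mrps18c, Mrpl57, Mrpl23 and Mrps34) reach 0 in AMPK+/+ 2, the library of 291212 counts.

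To compare the whole set between genotypes, its CPM were summed in each library. The sum was 1574, 1354 and 1273 CPM in AMPK+/+ 1 to 3 and 1873, 1952 and 2112 CPM in the libraries labelled AMPK-/- 1 to 3. Every AMPK-/- library lay above every AMPK+/+ library, and the means were 1401 ± 156 CPM and 1979 ± 122 CPM (SD, n = 3 each), a ratio of 1.41. For the shallow libraries the 95% exact Poisson intervals were 1226 to 1492 CPM for AMPK+/+ 2 and 1959 to 2275 CPM for AMPK-/- 3, and these cover counting error only.

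In the LMX1B experiment the sum was 1327, 1323 and 1360 CPM in LMX1B+/+, 1971, 1915 and 2271 CPM in the libraries labelled LMX1B+/-, and 1400, 1510 and 1435 CPM in LMX1B-/-. The LMX1B+/- libraries were above all others, and the LMX1B-/- libraries were just above LMX1B+/+ without overlap. The means were 1337 ± 20.3, 2052 ± 191 and 1448 ± 56.3 CPM (SD, n = 3 each), so that the ratio to LMX1B+/+ was 1.54 in LMX1B+/- and 1.08 in LMX1B-/-. In bulk tissue, fewer cells of a type and less RNA per cell cannot be told apart.

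**Figure D2:**
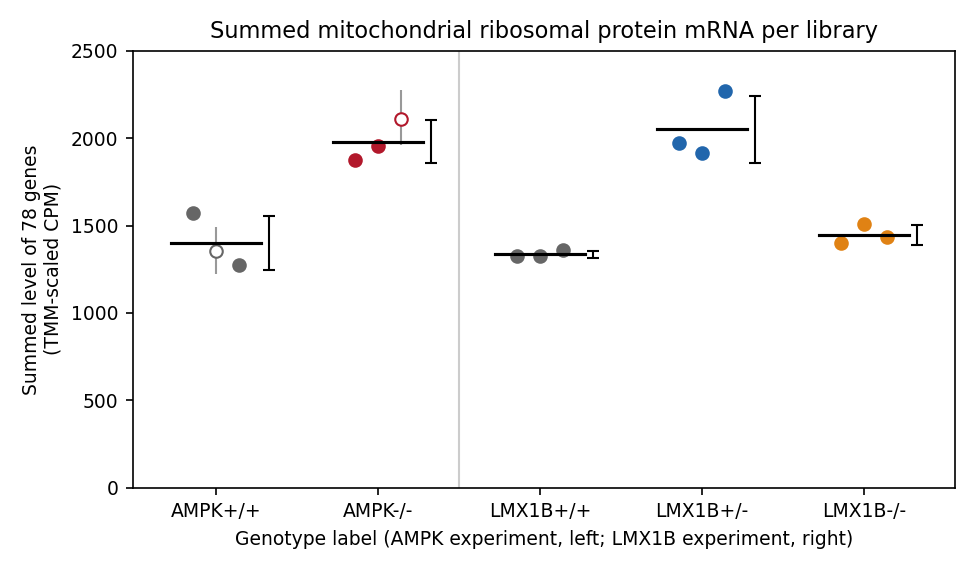
Summed level of the 78 genes in each library, in TMM-scaled CPM, by genotype label. Points are libraries (open: the 2 shallow libraries), grey lines 95% exact Poisson intervals of counting, thick lines group means and brackets ± 1 SD of 3 libraries; LMX1B+/- libraries reach 1915 to 2271 CPM against 1323 to 1360 CPM in LMX1B+/+.

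Between LMX1B+/- and LMX1B+/+ the genes of both ribosomal subunits rose together. Of the 78 genes, all of which passed the filter on low counts, 66 rose, 0 fell and 12 were not called at an edgeR adjusted p under 0.05. Over all 21729 tested genes 36.7% were called, made up of 19.4% higher and 17.3% lower. The median log2 fold change of the 78 genes was 0.58, with a range from −0.22 to 1.45, beside a median of −0.03 over all tested genes. The CPM of the 2 genotypes did not overlap in 68 of the 78 genes with LMX1B+/- higher, which was so for 23.4% of all tested genes, and in 2 with LMX1B+/- lower, which was so for 21.9%. When libraries were scaled by their totals alone, the median of all tested genes shifted to −0.27 and that of the 78 genes to 0.33, a distance of 0.61 as before, and 31 of the 78 were called higher and 2, Mrpl37 and Mrps2, lower. That fit called 7870 of the 21729 tested genes in either direction.

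The smallest adjusted p belonged to Mrpl20, whose bacterial relative binds ribosomal RNA early in assembly of the large subunit. It was at 31.4, 25.6 and 30.1 CPM in LMX1B+/+ and at 63.5, 67.3 and 81.2 CPM in LMX1B+/- (log2 fold change 1.28, SE 0.114, edgeR adjusted p = 5.9e-06). Mrpl30, the relative of bacterial L30 whose promoter is given with its NRF1 letters, was at 24.8, 27.2 and 28.5 CPM against 59.9, 56.6 and 75.9 CPM (1.25, SE 0.116, edgeR adjusted p = 7.85e-06). The fitted folds of these genes were 2.43 and 2.39, and no library of one genotype reached the range of the other.

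Among the other proteins of the large subunit, Mrpl41 was at 20.3, 20.6 and 19.4 CPM in LMX1B+/+ and at 40.2, 37.9 and 54.0 CPM in LMX1B+/- (log2 fold change 1.13, edgeR adjusted p = 2.81e-05). Mrpl52, also specific to mitochondria, was at 21.8, 16.6 and 19.0 CPM against 46.2, 36.6 and 56.7 CPM (1.28, edgeR adjusted p = 4.17e-05). Mrpl47, which lies at the exit of the peptide tunnel, was at 9.36, 10.4 and 10.8 CPM against 20.6, 19.3 and 21.5 CPM (1.00, edgeR adjusted p = 5.75e-05). All 3 genes were separated between the genotypes. Mrpl32, a protein that has to be cut by a mitochondrial protease before it joins the ribosome, was at 17.9, 18.7 and 21.4 CPM against 38.0, 33.2 and 45.3 CPM (1.01, edgeR adjusted p = 6.38e-05). Mrps21, of the small subunit, was at 10.4, 10.7 and 10.9 CPM against 21.1, 19.3 and 26.0 CPM (1.05, edgeR adjusted p = 5.78e-05).

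The largest log2 fold change was that of Mrps18c, the relative of bacterial S18, at 4.12, 4.19 and 4.21 CPM in LMX1B+/+ and 11.3, 8.81 and 14.1 CPM in LMX1B+/- (1.45, SE 0.188, edgeR adjusted p = 8.28e-05). Mammals have 3 related genes of this name, and the other 2 had smaller fold changes. Mrps18a was at 20.3, 19.4 and 22.6 CPM against 25.01, 24.0 and 26.1 CPM (0.27, SE 0.0999, edgeR adjusted p = 0.0489). Mrps18b was at 5.03, 6.55 and 4.71 CPM against 7.38, 4.90 and 5.52 CPM, with overlap, and was not called (0.13, SE 0.189, edgeR adjusted p = 0.625). The call of Mrps18a was lost in 12 of 19 alternatives, among them RLE scaling and leaving out any LMX1B-/- library. The difference between the 3 paralogs was not tested. Their exons overlap other annotated genes in the case of Mrps18b and Mrps18c.

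Of the 3 genes of the stalk, which binds the factors of translation, 2 rose. Mrpl12 was at 40.4, 38.5 and 36.9 CPM in LMX1B+/+ and at 56.6, 63.8 and 73.2 CPM in LMX1B+/- (log2 fold change 0.74, edgeR adjusted p = 0.00014), and Mrpl11, at the base of the stalk, rose from 26.4, 24.3 and 28.0 CPM to 43.9, 42.9 and 49.9 CPM (0.79, edgeR adjusted p = 5.79e-05). Mrpl10, which anchors Mrpl12, was at 24.1, 18.7 and 20.3 CPM against 21.9, 20.1 and 23.7 CPM, with overlap (0.06, SE 0.119, edgeR adjusted p = 0.730). At the tunnel exit all 6 genes listed rose, with a median log2 fold change of 0.78. Among them Mrpl45, which holds the ribosome to the inner membrane, was at 19.2, 21.4 and 20.9 CPM against 27.6, 28.2 and 34.1 CPM (0.55, edgeR adjusted p = 0.00200). In the central protuberance 5 of 6 genes rose.

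In the small subunit, Mrps12 of the decoding centre was at 11.7, 9.70 and 10.6 CPM in LMX1B+/+ and at 13.3, 15.1 and 17.8 CPM in LMX1B+/- (0.53, edgeR adjusted p = 0.00732), and with the trend on gene length removed, described further on, it was no longer called (0.12, edgeR adjusted p = 0.493). Mrps24, at the entry of the mRNA channel, was at 16.3, 15.8 and 14.6 CPM against 27.9, 25.6 and 26.9 CPM (0.78, edgeR adjusted p = 9.92e-05), and its exons overlap Urgcp on the same strand. Mrps5, at the same entry, did not differ beyond the spread of its libraries, at 42.9, 45.3 and 50.6 CPM against 48.9, 44.7 and 48.2 CPM (0.03, SE 0.0938, edgeR adjusted p = 0.831). Mrpl58, a peptidyl-tRNA hydrolase that rescues stalled ribosomes, rose from 21.5, 21.1 and 23.0 CPM to 33.1, 31.5 and 35.5 CPM (0.61, edgeR adjusted p = 0.000457). Mrps36, which is no ribosomal protein, also rose (0.55, edgeR adjusted p = 0.0293), a call lost in 7 of 19 alternatives and at 0.23 with the length trend removed (edgeR adjusted p = 0.340).

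The 12 genes that were not called were Mrpl2, Mrpl3, Mrpl4, Mrpl10, Mrpl37, Mrpl38, Mrpl49, Mrps2, Mrps5, Mrps18b, Mrps27 and Mrps34. Among these, 2 were lower in every LMX1B+/- library than in any LMX1B+/+ library without passing the test. Mrps2, of the small subunit, had 27.0, 26.0 and 29.0 CPM in LMX1B+/+ and 23.9, 25.8 and 21.0 CPM in LMX1B+/- (log2 fold change −0.22, SE 0.113, edgeR adjusted p = 0.149). Mrpl37, specific to mitochondria, was at 32.9, 34.6 and 34.0 CPM against 29.0, 32.0 and 28.4 CPM (−0.18, SE 0.0903, edgeR adjusted p = 0.130).

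By class, 14 of 16 bacterial-type and 7 of 10 mitochondria-specific genes of the small subunit rose, with medians of 0.56 and 0.46 on the log2 scale. In the large subunit, 26 of 30 bacterial-type genes (median 0.71) and 18 of 21 mitochondria-specific genes (median 0.61) rose. No test of the difference between classes was made. Of the 25 genes with a promoter motif 21 rose (median 0.55), and of the 44 without one 39 rose (median 0.60). In AMPK-/- against AMPK+/+ these were 2 of 25 (median 0.45) and 4 of 44 (median 0.42). A part of the motifs in the changes was not tested.

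**Figure D3:**
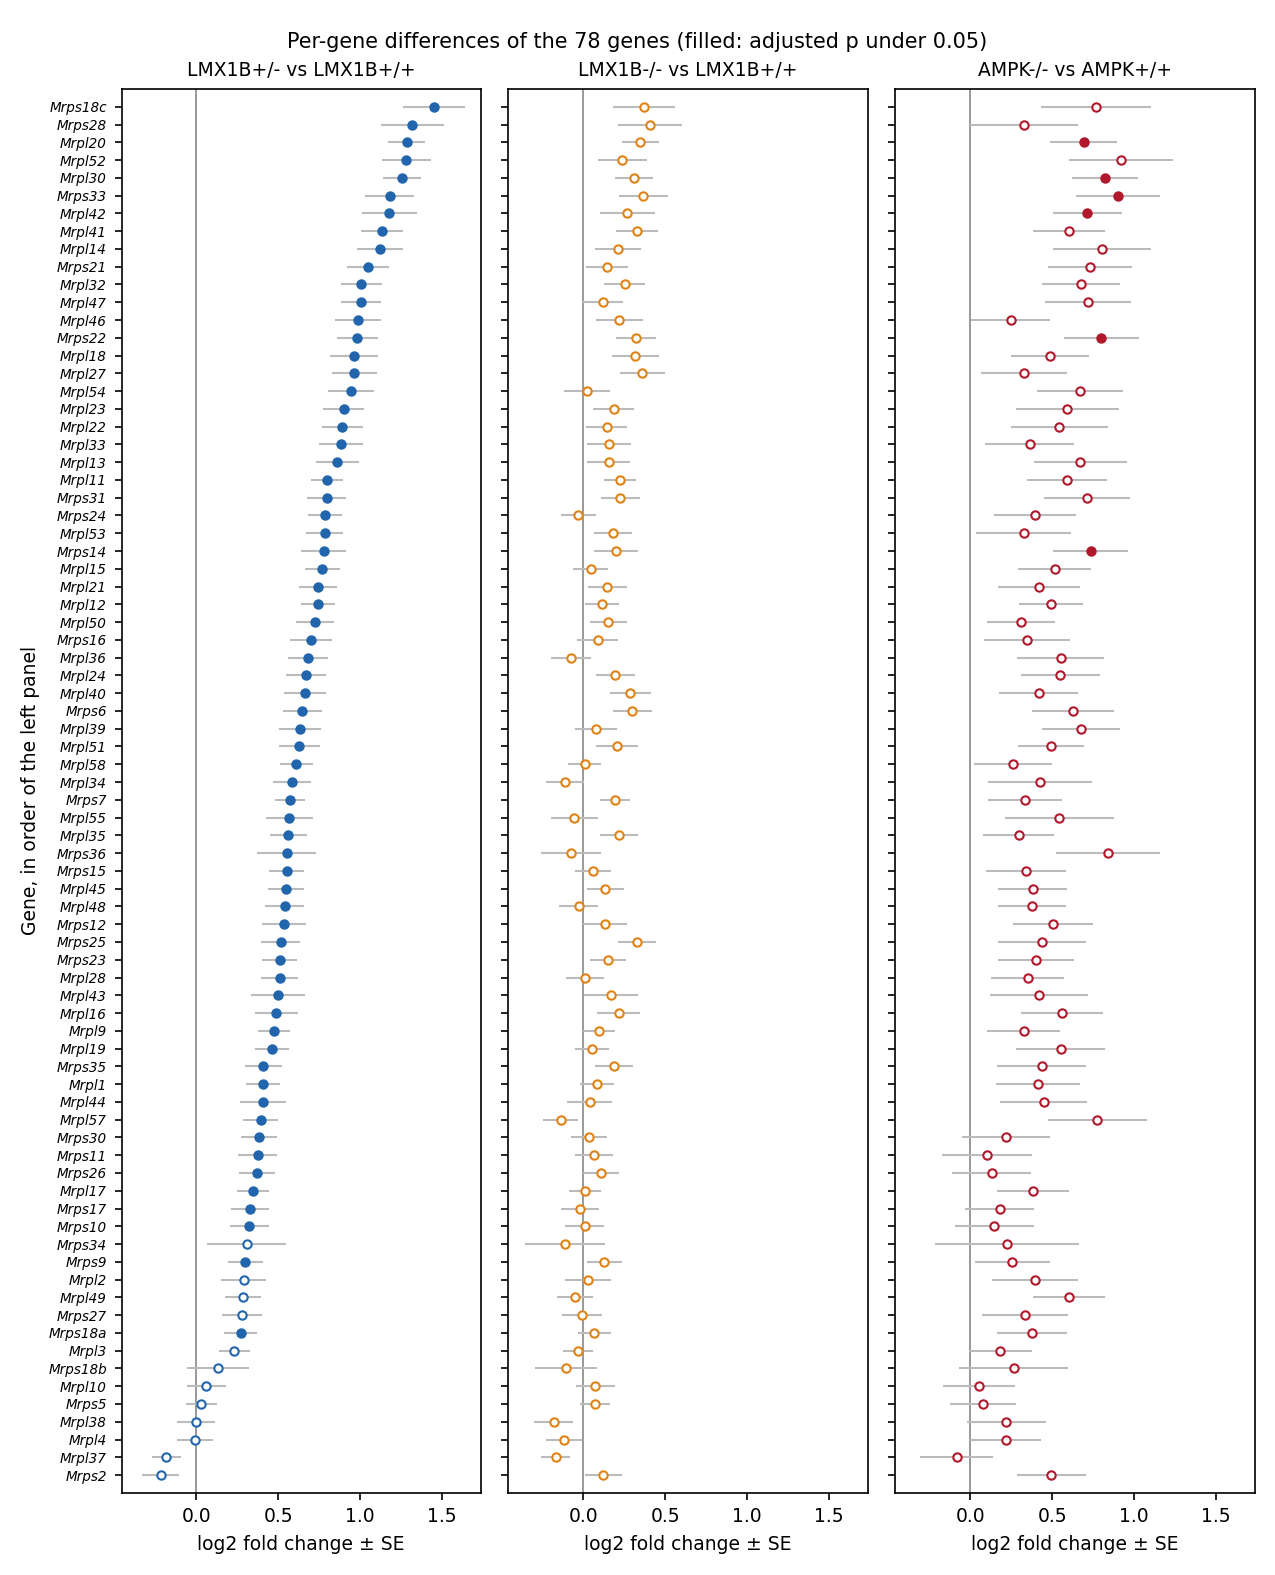
Log2 fold change ± SE of each of the 78 genes for LMX1B+/- against LMX1B+/+ (left), LMX1B-/- against LMX1B+/+ (middle) and AMPK-/- against AMPK+/+ (right), in the order of the left panel. Filled points passed an edgeR adjusted p under 0.05: 66 genes at the left, 0 in the middle and 6 at the right.

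Between LMX1B-/- and LMX1B+/+ none of the 78 genes was called by edgeR, which called 0.0184% of all tested genes (4 genes, all lower), and none by DESeq2. At an unadjusted p under 0.05, 11 of the 78 genes were higher and 0 lower, against 5.55% and 2.54% of all tested genes. The median log2 fold change was 0.13, with a range from −0.18 to 0.41, beside 0.01 over all tested genes, and 62 of the 78 values were above 0 against 52.1% of all tested genes. Mrpl20 was at 37.0, 38.4 and 35.5 CPM in LMX1B-/- against 31.4, 25.6 and 30.1 CPM in LMX1B+/+, without overlap (0.35, SE 0.113, edgeR adjusted p = 0.538). Mrpl30 was at 32.97, 34.8 and 32.2 CPM, also above LMX1B+/+ (0.31, SE 0.116, edgeR adjusted p = 0.554). In 28 of the 78 genes the LMX1B-/- libraries were all higher, and in 2 all lower, against 11.9% and 6.09% of all tested genes.

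The difference between the libraries labelled LMX1B-/- and LMX1B+/- was tested directly, with the same LMX1B+/- libraries as before. Of the 78 genes 57 were lower in LMX1B-/-, 1 was higher and 20 were not called, beside 14% of all tested genes called lower and 11.5% called higher. Values were above 0 for 4 of the 78 genes and for 51.9% of all tested genes. The median log2 fold change was −0.51, against 0.02 over all tested genes, and with libraries scaled by their totals alone these were −0.31 and 0.22, with 23 of the 78 called lower. That fit called 5033 of the 21729 tested genes in either direction. Mrpl20 fell by 0.93 on the log2 scale (SE 0.113, edgeR adjusted p = 0.000105), Mrpl30 fell by 0.95 (edgeR adjusted p = 0.000113) and Mrps24 fell by 0.81 (edgeR adjusted p = 0.00015). The next by adjusted p were Mrpl47, Mrps21, Mrpl52, Mrpl15 and Mrpl14, with log2 fold changes from −1.04 to −0.72. Mrps2 was the 1 gene that was higher, at 26.9, 32.8 and 29.7 CPM in LMX1B-/- against 23.9, 25.8 and 21.0 CPM in LMX1B+/- (0.34, SE 0.112, edgeR adjusted p = 0.0410). This call was lost in 9 of 19 alternatives, with an edgeR or DESeq2 adjusted p between 0.0231 and 0.179 over them.

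In the AMPK experiment the genes were mostly higher in the libraries labelled AMPK-/-, but few passed the test. Of the 78 genes 6 rose, 0 fell and 72 were not called, and edgeR called 8.94% of all 17397 tested genes, 3.77% higher and 5.17% lower. The median log2 fold change was 0.42, with a range from −0.08 to 0.92, beside −0.01 over all tested genes, and 77 of the 78 fitted values were above 0 against 49.5% of all tested genes. The mean CPM of the 3 libraries was higher in AMPK-/- for 73 genes, and for Mrpl10, Mrpl38, Mrps11 and Mrps28 it went the other way than the fitted value. At an unadjusted p under 0.05, 30 were higher and 0 lower, against 11.4% and 13.2%. The CPM did not overlap in 41 of the 78 genes, all with AMPK-/- higher, against 13.9% of all tested genes.

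The 6 genes called were Mrpl30, Mrps33, Mrps22, Mrpl42, Mrpl20 and Mrps14. Mrpl30 was at 33.05, 20.0 and 26.3 CPM in AMPK+/+ and at 49.7, 51.6 and 51.4 CPM in AMPK-/- (log2 fold change 0.82, SE 0.201, edgeR adjusted p = 0.0133), where the 2 shallow libraries gave 6 and 17 counts. Mrps22, a protein of the small subunit specific to mitochondria whose loss of function causes disease in people, was at 18.6, 20.0 and 15 CPM against 30.2, 27.3 and 36.3 CPM (0.80, edgeR adjusted p = 0.0299). Mrps33, of the same class, was at 15.7, 9.98 and 12.4 CPM against 23.8, 23.3 and 42.3 CPM (0.90, edgeR adjusted p = 0.0293). The groups did not overlap in any of these 3 genes, and the value of 9.98 CPM rests on 3 counts.

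Mrpl42, specific to mitochondria, was at 23.6, 33.3 and 23.8 CPM in AMPK+/+ and at 35.5, 44.6 and 42.3 CPM in AMPK-/- (0.72, edgeR adjusted p = 0.0355). Mrpl20 was at 43.3, 39.9 and 28.9 CPM against 58.3, 54.7 and 72.5 CPM (0.69, edgeR adjusted p = 0.0374). Mrps14, of the bacterial type, was at 21.3, 20.0 and 14.5 CPM against 29.5, 29.7 and 33.2 CPM (0.73, edgeR adjusted p = 0.0482). Their libraries were separated as well. In the stalk Mrpl12 was at 44.8, 33.3 and 35.1 CPM against 53.6, 52.5 and 66.5 CPM (0.49, edgeR adjusted p = 0.114) and was not called, and Mrpl10 overlapped, with a fitted value opposite in sign to its means, at 30.2, 26.6 and 22.5 CPM against 29.7, 26.4 and 21.2 CPM (0.05, SE 0.220, edgeR adjusted p = 0.924). Of the 3 stalk genes, 6 tunnel exit genes and 6 genes of the central protuberance, 0 were called by edgeR, and 2, 2 and 0 were higher at an unadjusted p under 0.05.

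The number of calls depended on single libraries. It was 0 without AMPK+/+ 3, 1 without AMPK-/- 3 (Mrpl30), 3 without AMPK+/+ 2 or without AMPK-/- 1, 4 without AMPK-/- 2 and 19 without AMPK+/+ 1. The number of calls over all tested genes moved as well. In the same order of libraries it was 548, 605, 1060, 921, 1440 and 2958, beside 1555 with all libraries. Without both shallow libraries, an alternative added after seeing the data, 0 of the 78 genes were called in a fit that called 6 genes in all, the median log2 fold change was 0.43 and 77 of 78 values were above 0. DESeq2 called 1 gene, Mrpl30, and the same gene was the 1 called when libraries were scaled by their totals alone, where the median of the 78 genes was 0.25 and that of all tested genes −0.18. With the trend on GC content removed, also added after seeing the data, 6 genes were called, of which Mrpl30 alone was among the 6 named above, and the others were Mrpl12, Mrpl14, Mrpl52, Mrpl54 and Mrps24. Over all tested genes DESeq2 called 680, the scaling by totals alone 1928 and the fit without the GC trend 926.

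The 6 genes called in the AMPK experiment were also called higher in LMX1B+/-, and 74 of the 78 genes had a log2 fold change above 0 in both. These counts had little room to differ. In LMX1B+/- 66 of the 78 genes were called higher, and 77 and 74 values were above 0 in AMPK-/- and LMX1B+/-. The 2 sets of log2 fold changes correlated across the 78 genes with a Pearson's r of 0.669, as a description, since the points share gene length and base composition. The comparisons share no library, and the same counts and correlation were not taken over all tested genes. Mrpl4, Mrpl38 and Mrps2 differed in sign, and of these Mrps2 had 0.50 for AMPK-/- (SE 0.212, edgeR adjusted p = 0.146) and −0.22 for LMX1B+/-.

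Gene length was examined because fold changes ran with it in both experiments. The length, as implied by the deposited RPKM, had a median of 2394 bases over the 78 genes (range 607 to 8631), against 3927 bases over the tested genes of the AMPK experiment and 3432 bases in the LMX1B experiment. Over all tested genes, the log2 fold change correlated with the log10 of length with a Pearson's r of −0.365 for AMPK-/- against AMPK+/+ and −0.422 for LMX1B+/- against LMX1B+/+. It was −0.0928 for LMX1B-/- against LMX1B+/+ and 0.447 for LMX1B-/- against LMX1B+/-. Across the 78 genes these were −0.236, −0.338, −0.124 and 0.373. In the shortest decile of genes (median length 470 bases) 50.5% were called higher in LMX1B+/-, and in the longest decile (11321 bases) 4.97%.

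The counts were then set beside genes of like length. In LMX1B+/-, 33 of the 39 genes at or under the median length rose, beside 34.1% of all tested genes of up to 2394 bases, and 33 of the 39 longer genes, beside 11.8%. In AMPK-/- 2 of the shorter genes rose beside 8.8%, and 4 of the longer genes beside 1.79%. Within the interquartile range of their lengths (1480 to 4264 bases) 30 of 38 rose in LMX1B+/-, beside 18.4% of the 8669 tested genes of that range, and 6 of 38 in AMPK-/-, beside 3.91% of 6488. Within the interquartile range of their levels, the average CPM on a log scale, 34 of 38 rose in LMX1B+/- beside 28.6%, and 3 of 38 in AMPK-/- beside 3.38%. For genes within both ranges the counts were 14 of 18 beside 31.7% and 3 of 20 beside 2.9%. In LMX1B-/- against LMX1B+/-, 26 of 38 were lower within the range of lengths beside 12.2%, 27 of 38 within the range of levels beside 21.6% and 12 of 18 within both beside 22.5%. With the trend of the fold changes on length removed from each library, 57 of the 78 genes were called in LMX1B+/- (56 of them also called without it) at a median of 0.51, and 50 of 78 in LMX1B-/- against LMX1B+/- at a median of −0.44. For AMPK-/- 4 genes were called (Mrpl30, Mrpl32, Mrpl42 and Mrps22) at a median of 0.34. Over all tested genes and both directions, the 2 LMX1B fits called 6269 and 3663 of 21729. The AMPK-/- fit called 901 of 17397, and its 4 of 78 is to be read beside this share.

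Single genes differed in how much of their change remained. Mrpl30, with a length of 3226 bases, had a log2 fold change of 1.26 in LMX1B+/- and 0.83 in AMPK-/- after the removal, against 1.25 and 0.82 before. Mrpl34, the shortest at 607 bases, went from 0.59 (edgeR adjusted p = 0.00165) to −0.08 (edgeR adjusted p = 0.565) in LMX1B+/-. Mrps21, with 739 bases, went from 1.05 to 0.46, and Mrpl41, with 888 bases, from 1.13 to 0.64 (edgeR adjusted p = 0.00772 and 0.00116 after the removal).

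**Figure D4:**
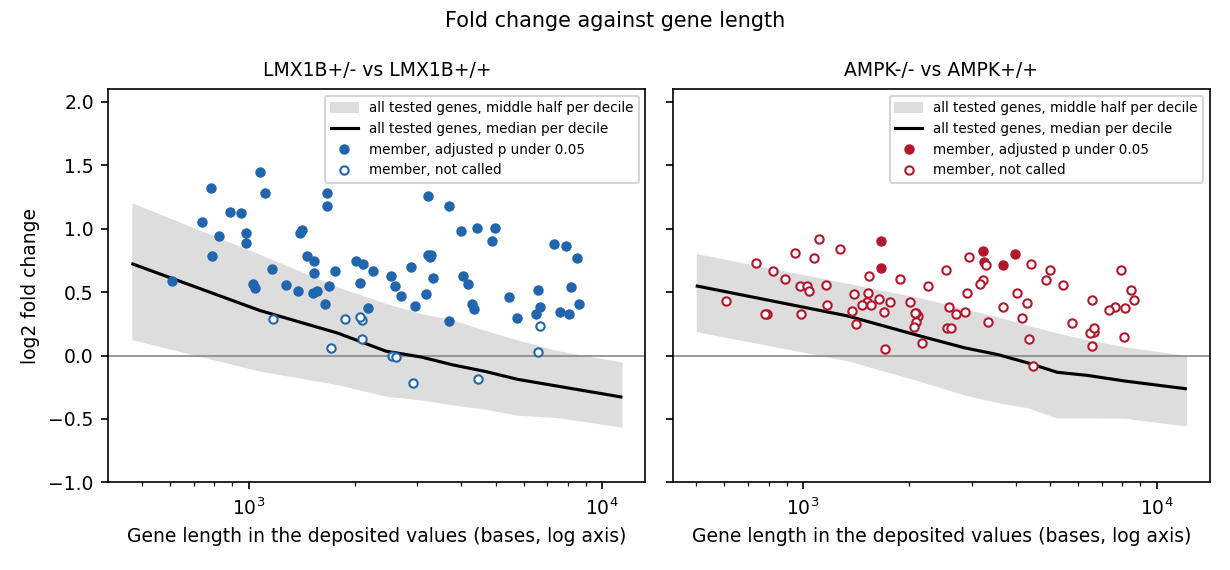
Log2 fold change against gene length (log axis) for LMX1B+/- against LMX1B+/+ (left) and AMPK-/- against AMPK+/+ (right). Points are the 78 genes, filled where the edgeR adjusted p was under 0.05, and the black line and grey band are the median and the interquartile range of all tested genes in each decile of length. Of the 39 longer genes 33 are filled at the left and 4 at the right, and the black line is higher at short lengths in both panels.

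Genes of related function were examined from lists written from general knowledge. Of 5 mitoribosomal proteins with other names (Dap3, Ptcd3, Aurkaip1, Chchd1 and Gadd45gip1), 4 rose in LMX1B+/- and 1 in AMPK-/-. Aurkaip1 rose in both (log2 fold changes 1.03 and 0.85, edgeR adjusted p = 1.59e-05 and 0.00803). Of 13 mRNAs encoded by mitochondrial DNA, the templates of this ribosome, 12 rose in LMX1B+/- (median 1.27) and 12 in AMPK-/- (median 0.97). Among them mt-Nd3, for a complex I subunit, rose by 1.68 and 1.16. Among all tested genes within the interquartile range of lengths of these mRNAs (median 784 bases), 40.1% were called higher in LMX1B+/- and 9.65% in AMPK-/-. Of 73 nuclear-encoded respiratory chain subunits 70 rose in LMX1B+/- (median 0.96) and 38 in AMPK-/- (median 0.61), and of 79 cytosolic ribosomal proteins 78 (median 1.25) and 48 (median 0.76). For genes as long as these subunits (median 1718 bases) the shares called higher were 23.7% and 6.89%, and for genes as long as the cytosolic proteins (1739 bases) 22.3% and 6.38%. For the 5 proteins with other names (2494 bases) they were 15.3% and 2.78%. In LMX1B-/- against LMX1B+/+ edgeR called 0 genes of these 4 lists, and at an unadjusted p under 0.05 these had 1, 1, 27 and 23 genes higher, in the order given, with 0, 1, 0 and 2 lower. Of all tested genes 5.55% were higher and 2.54% lower by that measure, and its share among genes of like length was not taken.

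The lists of factors that build and run the mitochondrial ribosome had medians nearer to 0, and their counts are to be read beside the 19.4% called higher and 17.3% called lower of all tested genes in LMX1B+/-. Of 13 mitochondrial translation factors 5 rose and 2 fell in LMX1B+/- (median 0.24), among the former Mrrf, the ribosome recycling factor (0.65, edgeR adjusted p = 0.00265), and Mtif2, an initiation factor (0.38, edgeR adjusted p = 0.00765). Of 26 assembly factors 6 rose and 2 fell (median 0.12), with Malsu1 higher (0.68) and the helicase Dhx30 lower (−0.38), and of all tested genes of like length 14.9% rose and 15% fell. Of 17 mitochondrial aminoacyl-tRNA synthetases 2 rose and 4 fell (median −0.06), beside 11.3% and 25.9% of genes of like length. In AMPK-/- edgeR called 0 translation and 0 assembly factors, with 0 and 1 higher at an unadjusted p under 0.05, and 1 synthetase, Lars2, fell (log2 fold change −0.80, SE 0.230, edgeR adjusted p = 0.0303). This 1 of 17 is to be read beside the 6.85% called lower among tested genes of like length. Over all tested genes of this experiment 3.77% were called higher and 5.17% lower.

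Of 11 genes of mitochondrial DNA maintenance and transcription 3 rose in LMX1B+/-, including Tfam, which packages mitochondrial DNA (0.38, edgeR adjusted p = 0.00872), and 3 fell, beside 13.4% and 19.4% of genes of like length. Of 9 regulators of mitochondrial biogenesis 1 rose, Tfam again, and 3 fell. Pprc1 and Ppargc1b, coactivators of the PGC-1 family, fell in LMX1B+/- (by 0.78 and 1.07 on the log2 scale) and in AMPK-/- (by 1.16 and 1.60), with edgeR adjusted p of 0.000765, 0.00421, 0.00852 and 0.0376. The genes of this list are long (median 6284 bases), and of all tested genes of like length 25.8% were called lower in LMX1B+/- and 7.12% in AMPK-/-. No test of the difference between lists was made.

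**Figure D5:**
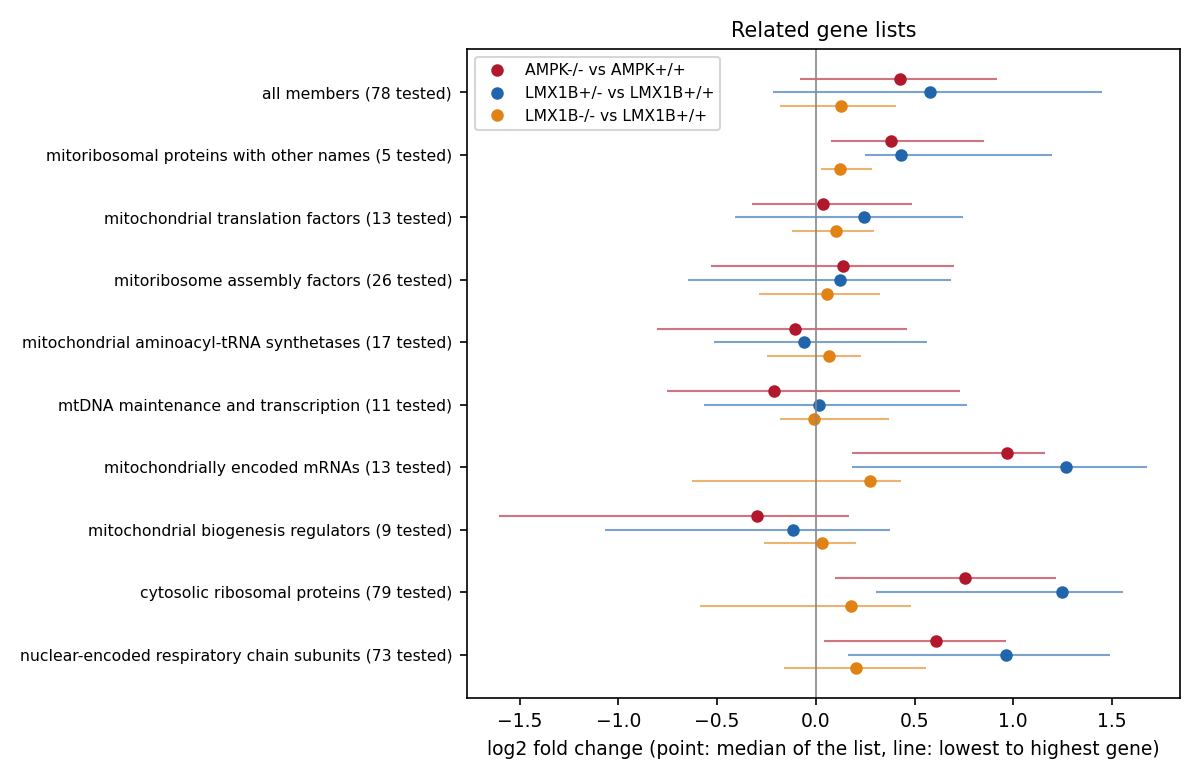
Log2 fold changes of the mitochondrial ribosomal protein genes (all members) and of 9 related lists, as the median (point) and the range from the lowest to the highest gene (line), for 3 comparisons. Cytosolic ribosomal proteins had medians of 1.25 in LMX1B+/- and 0.76 in AMPK-/-, above the 0.58 and 0.42 of the mitochondrial ones.

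Some measures of the libraries moved with these results, and their part in them was not tested. Genes of mitochondrial DNA held 10.4% to 13.9% of the counts in AMPK+/+ and 20.1% to 21.7% in AMPK-/-, and 5.57% to 6.74% in LMX1B+/+, 9.58% to 14.7% in LMX1B+/- and 7.23% to 7.98% in LMX1B-/-. All 5 erythroid markers rose in LMX1B+/-, with a summed level of 3173 to 5523 CPM against 405 to 1001 CPM in LMX1B+/+ and 869 to 2041 CPM in LMX1B-/-. All 5 oligodendrocyte markers fell in LMX1B+/- (69.3 to 79.2 CPM against 104 to 134 CPM), 5 of 9 hindbrain markers and 3 of 8 tested muscle markers rose, and 2 of 4 astrocyte and 2 of 5 granule cell markers fell. Of the remaining lists, 1 of 5 neuron markers rose and 1 fell, 1 of 4 cell cycle markers rose, 1 of 4 microglia markers fell, and the choroid plexus markers, not called, summed to 66.6 to 1571 CPM against 207 to 346 CPM. These marker counts are to be read beside the 19.4% called higher and 17.3% called lower of all tested genes in LMX1B+/-. In AMPK-/- the 5 neuron markers summed to 3343 to 3521 CPM against 2771 to 3185 CPM in AMPK+/+, without overlap, with 2 called higher and 1 lower. Of all tested genes 3.77% were called higher and 5.17% lower in AMPK-/-. In AMPK+/+ 3 the 9 muscle markers summed to 1260 CPM against at most 10.7 CPM in the other 5 libraries, and all 6 that were tested were called lower in AMPK-/-. This library also had the lowest sum of the 78 genes in the AMPK experiment, 1273 CPM. Without it 0 of the 78 genes were called in AMPK-/-, in a fit that called 548 genes in all. The 4 choroid plexus markers summed to 28.8 to 121 CPM in AMPK-/- against 2.63 to 8.40 CPM in AMPK+/+. In the AMPK libraries, described as newly born, the 4 cell cycle markers summed to at most 6.04 CPM and the 5 oligodendrocyte markers to 11117 to 19510 CPM. LMX1B+/+ 3 had a TMM factor of 1.24, and 4.56% of its counts fell on the most abundant gene against 13.7% to 22.7% in the other LMX1B libraries, and without this library 61 of the 78 genes were called in LMX1B+/-.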

How the data were processed

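The authors aligned directional polyA RNA-seq reads (Illumina HiSeq) with HISAT2, in systemPipeR, to a genome the submitters' notes give as GRCm39, and deposited raw counts per gene and RPKM for 15 libraries. The counter, annotation, strand setting and use of the kit's molecular indexes were not given in the sources used here. The deposited RPKM are the counts divided by gene length and by library total, and they gave the lengths. Of the gene IDs, 90.7% had a symbol. The members, lists and tests were chosen with earlier results of these data known.

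Counts of each experiment were tested in R 4.3.3 with edgeR 4.0.16 (filterByExpr, TMM, quasi-likelihood F-test, genotype as the only term, 6 and 9 libraries), with Benjamini-Hochberg adjustment over all tested genes. A gene is called at an adjusted p under 0.05. CPM are counts over the TMM-scaled total, and a count of 0 allows up to 3 counts of it. Intervals and limits cover counting error only. Genes were named as up to 8 called genes in each direction with the smallest adjusted p, the 4 highest and 4 lowest levels in WT, fixed roles, and up to 3 called genes of each other list, with Mrps18c, Mrpl37, Mrpl46, Mrps11 and the members of small counts singled out after their values were seen. The column read as AMPK+/+ 3 carries an unexplained suffix, and that read as LMX1B+/+ 3 carries the number 4 of its library name. Promoters came from RefSeq (GRCm38.p6), with no coordinates on GRCm39. Exon overlaps and GC content came from GENCODE on build GRCm38. The scripts were tested on simulated data. Alternatives were RLE and library-size scaling, other filters, DESeq2 1.42.0, removal of trends with length (lowess span 0.3) and GC content, a replicate block and leaving libraries out.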

Additional observations from a re-analysis of the deposited data

How the results depend on the processing

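The counts of LMX1B+/- (66) and LMX1B-/- against LMX1B+/- (58) stayed within 1.5 times under every alternative but library-size scaling, and the 0 of LMX1B-/- against LMX1B+/+ stayed 0 at an adjusted p under 0.05. Leaving out 1 library gave 59 to 66 genes (median 0.52 to 0.66) for LMX1B+/-, 41 to 60 (−0.61 to −0.43) for LMX1B-/- against LMX1B+/-, 0 (0.09 to 0.15) for LMX1B-/- against LMX1B+/+ and 0 to 19 (0.31 to 0.60) for AMPK-/-. Scaling by library size alone gave 33 genes with a median of 0.33 for LMX1B+/-, 24 with −0.31 for LMX1B-/- against LMX1B+/-, and 1 for AMPK-/-. Those fits called 7870 and 5033 of all 21729 tested genes and 1928 of 17397. The 6 calls of AMPK-/- became 2 when every library had to hold at least 10 counts of a gene (6 members tested), 1 by DESeq2, 1 after removing both trends, of length and of GC content, and 0 without both shallow libraries, the last pair added after seeing the data. With the GC trend removed there were again 6, of which 1 was shared. Over all tested genes the main fit of AMPK-/- called 1555, and the fits without 1 library 548 to 2958. The filter of 10 counts gave 825, DESeq2 680, removal of both trends 322, leaving out both shallow libraries 6 and removal of the GC trend 926. At an unadjusted p under 0.05 the 6 calls of AMPK-/- became 30, and the 0 of LMX1B-/- became 11. The cause of these changes was not tested. The filter of 10 counts left fewer members to test, and leaving out the shallow libraries left fewer libraries.

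Correlations of deviations between samples of the same replicate number ran from −0.177 to 0.148 over all pairs. In LMX1B-/- against LMX1B+/+ each sample correlated best with its own number (0.0758, 0.148 and 0.0974), and in the other comparisons none did. With 3 libraries per genotype, whether the numbers pair the samples cannot be decided. A replicate block gave 5 genes for AMPK-/-, 60 for LMX1B+/-, 0 for LMX1B-/- and 48 for LMX1B-/- against LMX1B+/-.

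Over all 78 genes, 70 to 78 kept their sign in each alternative of each comparison in which all were tested, with 70 for AMPK-/- without the length trend. Among the genes checked singly the following changed sign, of which Mrpl34 alone had been called. For AMPK-/-, Mrpl10 was −0.12 with library-size scaling, −0.15 without the length trend, −0.082 without both trends and −0.033 with the replicate block, Mrps5 was −0.11 with library-size scaling and Mrps34 −0.056 with the block. With 1 library left out, Mrpl10 ranged from −0.090 to 0.25, Mrps5 from −0.030 to 0.25 and Mrps34 from −0.024 to 0.69. For LMX1B+/-, library-size scaling gave −0.18 for Mrpl10, −0.12 for Mrps18b and −0.23 for Mrps5. Removing the length trend gave −0.14 for Mrpl10, −0.0036 for Mrps18b and −0.085 for Mrpl34, and removing both trends −0.045 for Mrpl10. With 1 library left out, Mrpl10 ranged from −0.016 to 0.17, Mrps18b from −0.058 to 0.29 and Mrps5 from −0.019 to 0.11.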

Other observations

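Mrpl46 and Mrps11 lie head to head on mouse chromosome 7, with exons that overlap on opposite strands, and were looked at for that reason after their values were seen. Mrpl46, of the large subunit and specific to mitochondria, was at 9.57, 9.59 and 9.69 CPM in LMX1B+/+, 17.4, 16.3 and 23.5 CPM in the libraries labelled LMX1B+/- and 10.98, 11.3 and 11.3 CPM in LMX1B-/-. Its log2 fold change in LMX1B+/- was 0.99 (SE 0.141, edgeR adjusted p = 0.000161). Mrps11, the relative of bacterial S11 in the small subunit, was at 12.6, 10.7 and 12.7 CPM, 16.1, 15.9 and 14.5 CPM, and 13.1, 12.2 and 12.4 CPM, with a log2 fold change of 0.37 in LMX1B+/- (SE 0.117, edgeR adjusted p = 0.0238). Both genes of the pair rose, but with the length trend removed Mrps11 was no longer called (0.26, edgeR adjusted p = 0.103) while Mrpl46 was (0.72, edgeR adjusted p = 0.00185), and the difference between them was not tested.

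The factors whose motifs were searched in the promoters were not called by edgeR in any comparison, as far as they were tested. In LMX1B+/- against LMX1B+/+, Nrf1 had a log2 fold change of −0.12 (SE 0.110, edgeR adjusted p = 0.442), Gabpa of 0.06 (SE 0.108, edgeR adjusted p = 0.675), Gabpb1 of 0.17 (SE 0.102, edgeR adjusted p = 0.202) and Yy1 of −0.01 (SE 0.101, edgeR adjusted p = 0.941). In AMPK-/- against AMPK+/+ the values were −0.32, 0.02, −0.14 and −0.30, with edgeR adjusted p from 0.344 to 0.979. The mRNA level of a factor does not give its activity.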
